A study of Homo sapiens with 4 samples.

Results

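Claudins are the membrane proteins that form the strands of epithelial tight junctions, and 10 members of the family were followed here in BEAS-2B, a human bronchial epithelial line that was immortalised. The 10 genes (CLDN1, CLDN3, CLDN4, CLDN6, CLDN7, CLDN11, CLDN12, CLDN14, CLDN15 and CLDN23) were taken by symbol from a count table of 24424 genes, and each was present in it. RNA was sequenced from 4 libraries, 1 per group. The siOCLN+LPS cells received an siRNA against occludin for 24 h and then LPS, the endotoxin of Gram-negative bacteria, for 2 h. The wtOCLN+LPS cells are labelled as transfected with wild-type occludin for 24 h before LPS for 2 h. The LPS cells received LPS, for which the protocol shared by all libraries gives 2 h, and the control cells no treatment. All 4 groups carry the genotype wild type in their labels, and no transfection or mock transfection is mentioned for the LPS and control cells.

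Claudins span the membrane several times, and their extracellular loops meet those of the neighbouring cell to close the space between cells. Some members seal this paracellular path, while others build pores in it that pass ions or water, so the mixture of claudins in a cell sets how tight and how selective the epithelium is. Most claudins bind the scaffold proteins ZO-1 to ZO-3 (TJP1 to TJP3) through their C-terminal tail. Occludin, the protein the study manipulated, lies in the same strands but belongs to the separate MARVEL family.

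Library totals were 13867494 to 17500031 counts, and a single count equalled 0.0571 to 0.0721 CPM (counts per 1000000 counted reads). OCLN, the occludin gene, stood at 21.0 CPM in siOCLN+LPS, 29.7 CPM in the wtOCLN+LPS-labelled library, 50.4 CPM in LPS and 55.4 CPM in control. The wtOCLN+LPS-labelled library thus held less OCLN than LPS, against what its label would give, and that library is named below by its label only. Within the transfected pair, siOCLN+LPS held 0.708 of the OCLN level of the wtOCLN+LPS-labelled library (0.618 to 0.811). In siOCLN+LPS, OCLN was at 0.417 of LPS (0.366 to 0.473). The transfected libraries were the most alike pair, with a chi-square per degree of freedom of 7.44, against 33.1 to 109 for the other pairs. It was taken over genes past a minimum count in the pair, a set that can differ between pairs. Since LPS and control carry no stated transfection, a difference of both transfected libraries from LPS cannot be told apart from one of transfection itself. Of 9 bronchial epithelial markers, 8 or 9 reached 1 CPM in each library, although the keratin KRT14 was at 0.458 to 1.07 CPM and the adhesion protein EPCAM at 1.26 to 2.67 CPM. The summed markers were at 1738 CPM in siOCLN+LPS, 1653 CPM in the wtOCLN+LPS-labelled library, 764 CPM in LPS and 924 CPM in control. KRT8 (372 to 976 CPM) and KRT18 (254 to 535 CPM) made up most of each sum. KRT5, KRT14, EPCAM and ITGA6 were not above LPS and control in both transfected libraries. With 1 library per group no test of a condition was possible and each statement compares libraries. Intervals in brackets are exact 95% intervals for counting error only (Poisson for a level, Clopper-Pearson for a ratio) and do not hold the spread between cultures.

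Of the 10 claudins, 6 reached 1 CPM in at least 1 library (CLDN1, CLDN7, CLDN11, CLDN12, CLDN15 and CLDN23). The other 4 were barely detected. CLDN1 was the most abundant claudin in every library, and the summed level of the family followed it. The 10 genes together stood at 398 CPM in siOCLN+LPS (388 to 407), 442 CPM in the wtOCLN+LPS-labelled library (432 to 452), 480 CPM in LPS (469 to 492) and 145 CPM in control (139 to 151). Without CLDN1, the other 9 summed to 84.3 CPM in siOCLN+LPS, 103 CPM in the wtOCLN+LPS-labelled library, 82.6 CPM in LPS and 82.6 CPM in control. The LPS library thus held 3.32 times the claudin counts of control (3.16 to 3.48), but 1.0 times once CLDN1 was left out (0.923 to 1.08). In bulk RNA, fewer cells of a type and less RNA per cell cannot be told apart.

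**Figure D1:**
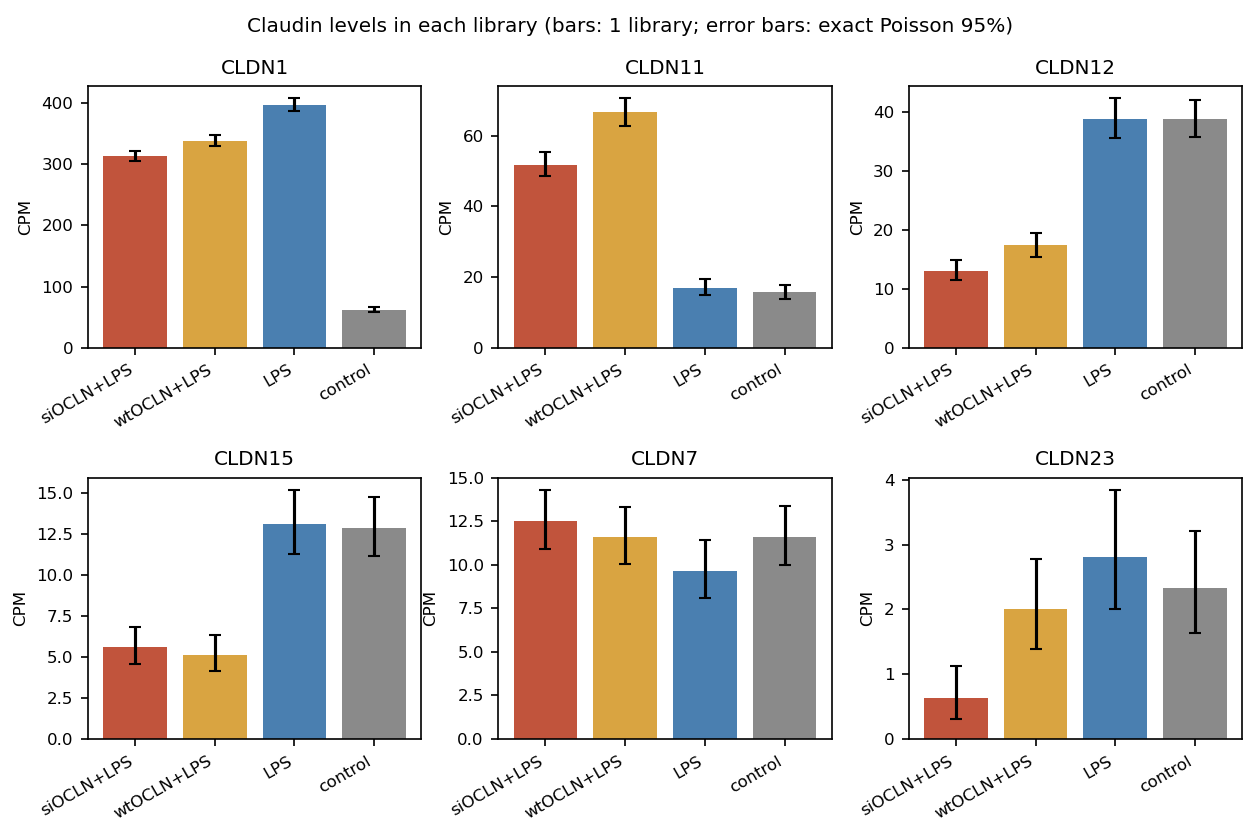
Level in CPM (vertical axes, from 0) of the 6 claudins that reached 1 CPM, in the siOCLN+LPS, wtOCLN+LPS, LPS and control libraries. Each bar is 1 library, and error bars are exact Poisson 95% intervals. CLDN1 is high in the 3 LPS-treated libraries, CLDN11 is high and CLDN12 and CLDN15 are low in both transfected libraries, and CLDN23 is lowest in siOCLN+LPS.

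CLDN1 is a sealing claudin found in most epithelia and needed for the water barrier of mouse skin. It had 5473 counts (313 CPM, 305 to 322) in siOCLN+LPS, 5937 counts (339 CPM, 331 to 348) in the wtOCLN+LPS-labelled library, 5513 counts (398 CPM, 387 to 408) in LPS and 988 counts (62.2 CPM, 58.4 to 66.2) in control. All 3 LPS-treated libraries were far above control, and the LPS library without transfection was the highest. CLDN1 was 6.39-fold higher in LPS than in control (5.97 to 6.85). The siOCLN+LPS library held 0.788 of the CLDN1 level of the LPS library (0.759 to 0.818) and wtOCLN+LPS held 0.853 of it (0.823 to 0.885). These lower levels shrank to 0.872 and 0.958 of the LPS level when libraries were scaled by TMM (trimmed mean of M values). Against control, siOCLN+LPS was 5.04-fold higher (4.71 to 5.40) and wtOCLN+LPS 5.46-fold higher (5.10 to 5.84). The siOCLN+LPS library held 0.923 of the wtOCLN+LPS level (0.890 to 0.958).

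The CLDN1 promoter is shown because CLDN1 was the claudin with the highest ratio in LPS against control. The sequence covers 250 bases before and 50 bases after the RefSeq start in GRCh38.p14, chr3:190322397-190322696 on the minus strand, and capitals mark any match to NF-kB, AP-1 (TGANTCA), interferon-response (ISRE) or STAT (TTCNNNGAA) motifs on either strand.
CLDN1: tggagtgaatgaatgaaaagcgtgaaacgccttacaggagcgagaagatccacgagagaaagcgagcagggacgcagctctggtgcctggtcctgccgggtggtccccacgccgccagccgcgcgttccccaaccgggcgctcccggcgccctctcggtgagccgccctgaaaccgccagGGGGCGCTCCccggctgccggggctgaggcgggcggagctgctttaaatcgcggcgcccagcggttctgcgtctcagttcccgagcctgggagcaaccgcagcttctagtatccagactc
The only match to the marked motifs was a single NF-kB match that begins 70 bases before the start. The NF-kB motif was set by name, so how strict its pattern is cannot be read here. The window also held 2 matches to the SP1 motif (GGGCGG), not marked, which 45.0% of all promoters held. An NF-kB match was also present at CLDN6, after its start, and CLDN6 had 3 counts in LPS and 4 in control. Across 35116 RefSeq promoters of the same length, 11.3% held such a match, 7.71% an AP-1 match, 3.57% an interferon-response match and 7.66% a STAT match. The start and the sequence come from another build than the hg19 of the submitters' processing notes, and whether the match is bound was not measured.

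CLDN11 builds the tight junction strands of myelin and of Sertoli cells, and was next in abundance to CLDN1 in both transfected libraries. It had 905 counts (51.8 CPM, 48.5 to 55.3) in siOCLN+LPS, 1165 counts (66.6 CPM, 62.8 to 70.5) in the wtOCLN+LPS-labelled library, 235 counts (16.9 CPM, 14.8 to 19.3) in LPS and 250 counts (15.7 CPM, 13.8 to 17.8) in control. Both transfected libraries stood above both others. Over LPS, CLDN11 was 3.06-fold higher in siOCLN+LPS (2.64 to 3.54) and 3.93-fold higher in the wtOCLN+LPS-labelled library (3.41 to 4.54). In LPS against control the fold was 1.08 (0.898 to 1.29), within counting error of 1. The siOCLN+LPS library held 0.778 of the CLDN11 level of the wtOCLN+LPS-labelled library (0.712 to 0.849). Of the 9 bronchial epithelial markers, 5 (KRT8, KRT18, KRT19, CDH1 and TP63) were also above LPS and control in both transfected libraries, while KRT5, KRT14, EPCAM and ITGA6 were not. KRT8 was the most abundant of the 9, at 976 CPM in siOCLN+LPS, 919 CPM in the wtOCLN+LPS-labelled library, 372 CPM in LPS and 442 CPM in control. Also higher was PDGFRB, a growth factor receptor of mesenchymal cells, at 49.4 CPM in siOCLN+LPS, 55.4 CPM in the wtOCLN+LPS-labelled library, 13.8 CPM in LPS and 12.3 CPM in control. The 8 fibroblast markers as a whole summed to 171 CPM in siOCLN+LPS, 179 CPM in the wtOCLN+LPS-labelled library, 129 CPM in LPS and 152 CPM in control. COL3A1, DCN and LUM, matrix genes of fibroblasts, were each at 0 or 1 count in every library, and 3 of the 8 reached 1 CPM. These 3 were PDGFRB, the collagen gene COL1A1 (55.2 to 62.7 CPM) and THY1 (52.7 to 81.6 CPM). Of 6 leukocyte markers, 1 reached 1 CPM, and CD3E was at 0 throughout. The 6 summed to 20.7 CPM in siOCLN+LPS, 23.0 CPM in the wtOCLN+LPS-labelled library, 6.78 CPM in LPS and 9.25 CPM in control. Most of each sum was CD14, at 20.6 CPM in siOCLN+LPS, 22.7 CPM in the wtOCLN+LPS-labelled library, 5.99 CPM in LPS and 8.37 CPM in control. Ciliated cell markers summed to 1.51 to 1.89 CPM and alveolar markers to 4.46 to 8.50 CPM. The part of these markers in the CLDN11 difference was not tested.

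CLDN7 is a claudin of junctions and of the basolateral membrane that binds EPCAM. It had 219 counts (12.5 CPM, 10.9 to 14.3) in siOCLN+LPS, 203 counts (11.6 CPM, 10.1 to 13.3) in the wtOCLN+LPS-labelled library, 134 counts (9.66 CPM, 8.10 to 11.4) in LPS and 184 counts (11.6 CPM, 9.97 to 13.4) in control. It varied least of the 6 detected claudins, with overlapping intervals in all 4 libraries. The ratio farthest from 1 was that of siOCLN+LPS to LPS, at 1.30 (1.04 to 1.62). The ratio of LPS to control was 0.834 (0.663 to 1.05).

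The remaining sealing or tissue-restricted claudins were at the limit of detection. CLDN3, which seals junctions in many epithelia, had 4 counts in siOCLN+LPS, 1 in the wtOCLN+LPS-labelled library, 3 in LPS and 12 in control. CLDN4, which is common in lung and gut epithelium, had 7 counts in siOCLN+LPS, 3 in the wtOCLN+LPS-labelled library, 12 in LPS and 7 in control. CLDN6, a claudin of embryonic epithelia, had 2 counts in siOCLN+LPS, 0 in the wtOCLN+LPS-labelled library, 3 in LPS and 4 in control. No level above 0.865 CPM was reached by any of the 3. CLDN14, a claudin of the inner ear and kidney, had 0 counts in every library. The limit taken for a count of 0, which is 3 counts, allows up to 0.172 CPM in siOCLN+LPS, 0.171 CPM in the wtOCLN+LPS-labelled library, 0.216 CPM in LPS and 0.189 CPM in control. Because they stayed under 1 CPM, these 4 genes entered none of the 2-fold counts below. Among their ratios, CLDN4 in the wtOCLN+LPS-labelled library was at 0.198 of LPS (0.0359 to 0.734) and CLDN3 in the wtOCLN+LPS-labelled library at 0.0757 of control (0.00177 to 0.511), on 3 counts and 1 count in that library.

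CLDN12 lacks the usual scaffold-binding tail of the family and has been tied to calcium passage in the gut. It had 228 counts (13.0 CPM, 11.4 to 14.9) in siOCLN+LPS, 303 counts (17.3 CPM, 15.4 to 19.4) in the wtOCLN+LPS-labelled library, 538 counts (38.8 CPM, 35.6 to 42.2) in LPS and 615 counts (38.7 CPM, 35.7 to 41.9) in control. Both transfected libraries lay below both others. The siOCLN+LPS library held 0.336 of the CLDN12 level of LPS (0.287 to 0.393) and wtOCLN+LPS held 0.446 of it (0.386 to 0.515). LPS over control was 1.0 (0.891 to 1.13). The siOCLN+LPS library was the lower of the transfected pair, at 0.753 of the wtOCLN+LPS-labelled library (0.632 to 0.898).

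CLDN15 forms a pore for sodium and other cations, best known from the small intestine. It had 98 counts (5.61 CPM, 4.55 to 6.83) in siOCLN+LPS, 90 counts (5.14 CPM, 4.14 to 6.32) in the wtOCLN+LPS-labelled library, 182 counts (13.1 CPM, 11.3 to 15.2) in LPS and 204 counts (12.8 CPM, 11.1 to 14.7) in control. As for CLDN12, the transfected libraries lay below the others. CLDN15 in siOCLN+LPS was at 0.427 of LPS (0.331 to 0.549), and in the wtOCLN+LPS-labelled library at 0.392 of LPS (0.301 to 0.507). The ratio of LPS to control was 1.02 (0.832 to 1.25). Between the transfected libraries it was 1.09 for siOCLN+LPS over the wtOCLN+LPS-labelled library (0.811 to 1.47).

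CLDN23, a claudin described in intestinal epithelium, was the least abundant of the 6. It had 11 counts (0.629 CPM, 0.314 to 1.13) in siOCLN+LPS, 35 counts (2.00 CPM, 1.39 to 2.78) in the wtOCLN+LPS-labelled library, 39 counts (2.81 CPM, 2.00 to 3.84) in LPS and 37 counts (2.33 CPM, 1.64 to 3.21) in control. Its interval in siOCLN+LPS lay below those of the other 3 libraries, which overlapped each other. The siOCLN+LPS library held 0.224 of the LPS level (0.103 to 0.446) and 0.315 of the wtOCLN+LPS level (0.144 to 0.634). The wtOCLN+LPS library held 0.711 of the LPS level (0.437 to 1.15), and LPS over control was 1.21 (0.750 to 1.95). CLDN23 was the claudin with the widest ratio between the transfected libraries among the 6, on the lowest counts.

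The promoters of CLDN11, CLDN12 and CLDN15 are shown because these genes lay past 2-fold from LPS in the same direction in both transfected libraries with library totals. Each covers the same 300 bases around the RefSeq start in GRCh38.p14, with capitals for the same 4 motifs. The windows are chr3:170418618-170418917 on the plus strand for the first listed start of CLDN11, chr7:90403211-90403510 on the plus strand for CLDN12 and chr7:101237753-101238052 on the minus strand for CLDN15.
CLDN11: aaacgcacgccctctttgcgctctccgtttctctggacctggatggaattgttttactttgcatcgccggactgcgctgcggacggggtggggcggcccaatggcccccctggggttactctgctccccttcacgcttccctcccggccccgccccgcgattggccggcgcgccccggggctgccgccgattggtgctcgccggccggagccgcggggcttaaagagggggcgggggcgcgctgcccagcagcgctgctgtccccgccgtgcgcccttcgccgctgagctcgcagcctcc
CLDN12: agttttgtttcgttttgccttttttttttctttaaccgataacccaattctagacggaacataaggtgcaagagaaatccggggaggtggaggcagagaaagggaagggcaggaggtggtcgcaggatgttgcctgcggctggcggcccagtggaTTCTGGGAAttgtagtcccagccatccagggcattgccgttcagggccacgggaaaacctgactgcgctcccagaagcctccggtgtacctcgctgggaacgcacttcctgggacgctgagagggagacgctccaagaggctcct
CLDN15: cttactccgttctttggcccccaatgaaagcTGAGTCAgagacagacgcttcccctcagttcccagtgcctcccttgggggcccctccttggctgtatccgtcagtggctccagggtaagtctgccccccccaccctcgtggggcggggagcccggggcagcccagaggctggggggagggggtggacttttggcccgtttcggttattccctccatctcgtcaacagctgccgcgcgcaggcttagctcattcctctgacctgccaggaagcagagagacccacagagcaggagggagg
The CLDN11 window held none of the 4 motifs. CLDN12 had a single STAT match beginning 95 bases before the start, and CLDN15 a single AP-1 match beginning 219 bases before it. The second listed start of CLDN11, not shown, had a STAT match beginning 122 bases before it. None of the 4 motifs was shared by the 3 windows printed, and none of them held the NF-kB match seen at CLDN1. Among the other claudin windows, CLDN4 held 2 AP-1 matches and the first start of CLDN7 held 1 interferon-response match. Of the 10 claudins, 9 had a promoter entry.

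For the count of claudins past 2-fold, ratios were taken as log2(CPM + 1), over genes that reached 1 CPM in at least 1 of the compared libraries, which understates the change of low genes. In LPS against control, 1 of 6 tested claudins was at least 2-fold higher (CLDN1, log2 ratio 2.66) and 0 were lower, where 1.6% and 0.207% of all 13551 genes tested lay that far apart. The median log2 ratio of the 6 was 0.07, beside -0.09 over all genes. The other 5 claudins lay between -0.24 and 0.20.

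In siOCLN+LPS against LPS, 1 of 6 claudins was at least 2-fold higher (CLDN11, log2 ratio 1.56) and 3 were at least 2-fold lower (CLDN12 at -1.50, CLDN23 at -1.23 and CLDN15 at -1.10). Of all 13505 genes tested, 3.32% were that much higher and 3.92% that much lower. The claudin median was -0.72, beside -0.13 over all genes. In wtOCLN+LPS against LPS, CLDN11 (1.91) was again the 1 claudin past 2-fold higher, and CLDN15 (-1.20) and CLDN12 (-1.12) were past 2-fold lower, where 3.32% and 3.69% of 13493 genes were. The claudin median was -0.29 and that of all genes -0.15. These comparisons share the LPS library. With TMM scaling the median of all genes moved to 0.01 in both, and 2 calls on the log2(CPM + 1) scale were lost. CLDN15 in siOCLN+LPS was then at 0.473 of LPS by CPM, and CLDN12 in the wtOCLN+LPS-labelled library at 0.501 of LPS. Of the genes past 2-fold from LPS, 45.9% lay on the higher side in siOCLN+LPS and 47.4% in the wtOCLN+LPS-labelled library with library totals, and 61.5% and 64.9% did with TMM. With a pseudocount of 5, CLDN12 in siOCLN+LPS was the sole claudin left past 2-fold lower in either comparison.

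**Figure D2:**
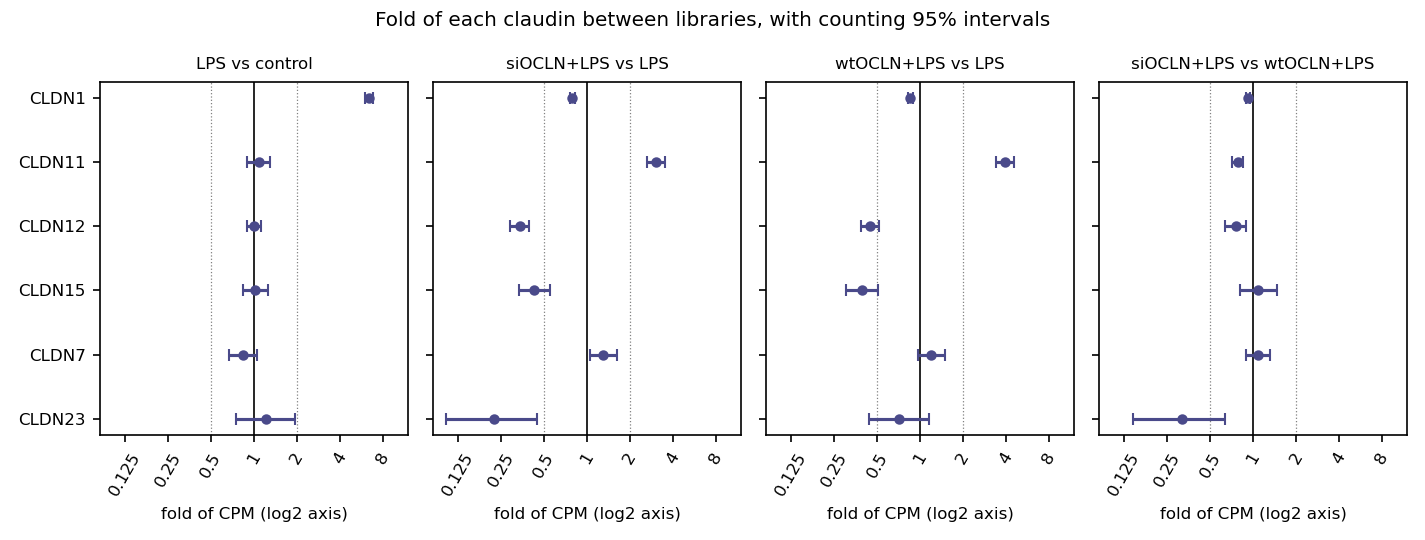
Fold of CPM (horizontal axes, log2 scale) of 6 claudins in 4 comparisons, with the first-named library over the second. Points are ratios of 1 library to 1 library, bars are exact 95% counting intervals, and dotted lines mark 2-fold. CLDN1 stands at 6.39 in LPS against control, and CLDN11 lies above while CLDN12 and CLDN15 lie below 1 in both comparisons of a transfected library with LPS.

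In siOCLN+LPS against wtOCLN+LPS, where both libraries were transfected, 0 of 6 claudins lay 2-fold apart. Of all 13109 genes tested, 0.0763% were at least 2-fold higher and 0.29% at least 2-fold lower. The claudin median was -0.24, beside 0.02 over all genes. CLDN23 came nearest, at a log2 ratio of -0.88, and passed 2-fold lower with a pseudocount of 0.1. CLDN12 (-0.38), CLDN11 (-0.36) and CLDN1 (-0.12) were also lower in siOCLN+LPS, by ratios whose counting intervals left out 1. CLDN15 and CLDN7 both had a log2 ratio of 0.10 to 0.11, within counting error.

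**Figure D3:**
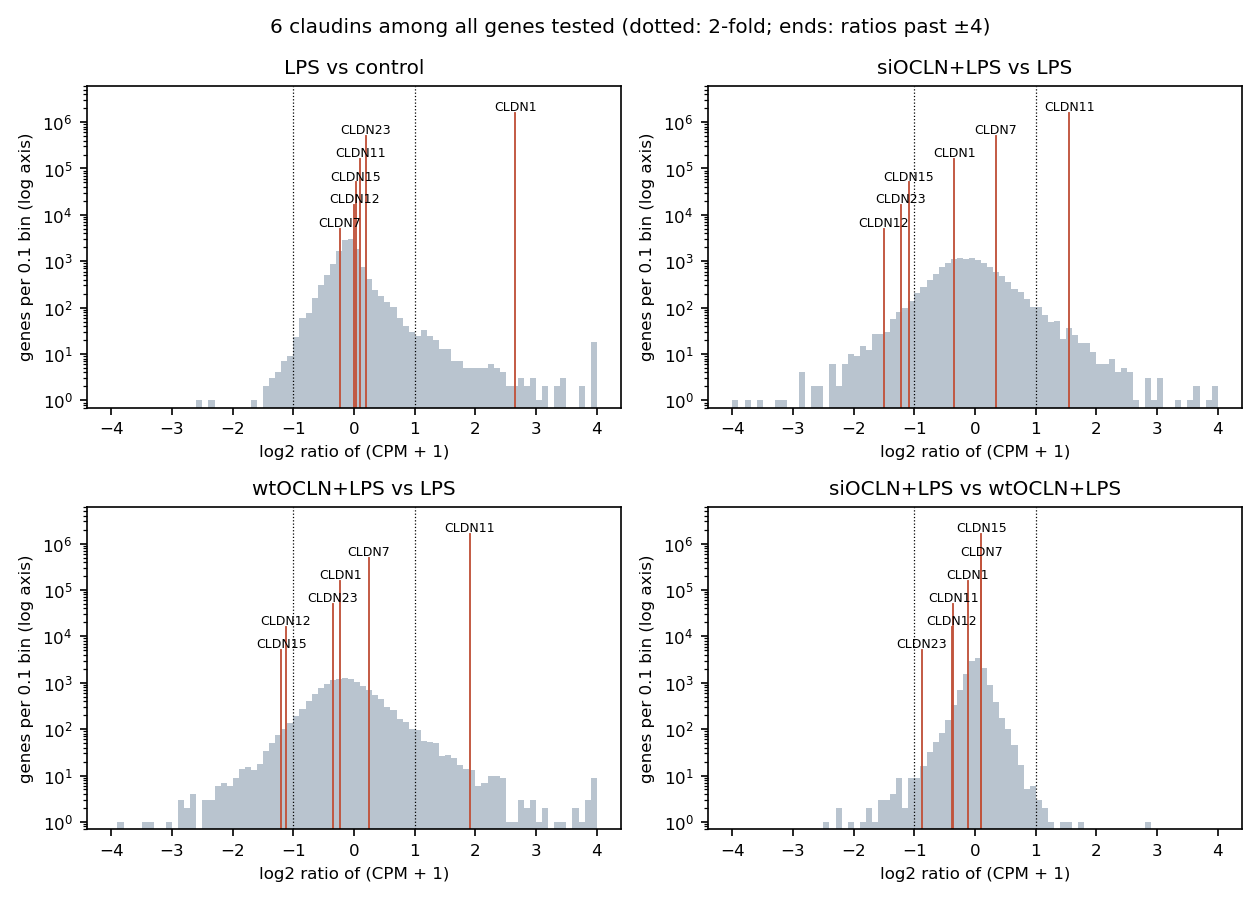
Number of genes (vertical axes, log scale) by log2 ratio of CPM + 1 in 4 comparisons, with red lines at the 6 tested claudins and dotted lines at 2-fold. Line heights only separate the names. CLDN1 in LPS against control (2.66) and CLDN11 against LPS in siOCLN+LPS (1.56) and wtOCLN+LPS (1.91) lie in the upper tails, and in siOCLN+LPS against wtOCLN+LPS all 6 lie within 2-fold.

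With control in place of LPS, a comparison added after the data were seen, CLDN1 and CLDN11 were past 2-fold higher in both transfected libraries. CLDN11 was 3.29-fold higher than control in siOCLN+LPS (2.86 to 3.80) and 4.23-fold in the wtOCLN+LPS-labelled library (3.69 to 4.87). CLDN12 stood at 0.337 of control in siOCLN+LPS (0.288 to 0.393) and at 0.447 in the wtOCLN+LPS-labelled library (0.389 to 0.514). CLDN15 stood at 0.437 (0.340 to 0.558) and 0.401 (0.309 to 0.516) of control in the same libraries. CLDN12, CLDN15 and CLDN23 were past 2-fold lower in siOCLN+LPS, and CLDN12 and CLDN15 in the wtOCLN+LPS-labelled library. Of 13584 genes tested in siOCLN+LPS against control, 3.94% were at least 2-fold higher and 5.44% lower, and in the wtOCLN+LPS-labelled library 3.91% and 4.91% of 13569 were. With TMM scaling, CLDN12 was the 1 claudin still past 2-fold lower than control in siOCLN+LPS, and 0 claudins were in the wtOCLN+LPS-labelled library. Of the genes past 2-fold from control, 68.5% lay on the higher side in siOCLN+LPS and 71.0% in the wtOCLN+LPS-labelled library with TMM, and 42.0% and 44.4% with library totals.

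The make-up of the claudin counts also differed between the libraries. CLDN1 took 78.8% of the counts of the 10 genes in siOCLN+LPS (77.8 to 79.7), 76.7% in the wtOCLN+LPS-labelled library (75.8 to 77.7), 82.8% in LPS (81.9 to 83.7) and 42.9% in control (40.9 to 45.0). CLDN11 took 13.0% in siOCLN+LPS, 15.1% in the wtOCLN+LPS-labelled library, 3.53% in LPS and 10.9% in control. CLDN12 took 3.28% in siOCLN+LPS, 3.92% in the wtOCLN+LPS-labelled library, 8.08% in LPS and 26.7% in control. The pore-forming CLDN15 took 1.41% in siOCLN+LPS, 1.16% in the wtOCLN+LPS-labelled library, 2.73% in LPS and 8.87% in control. A share falls when CLDN1 swells the sum, even at an unchanged level. By CPM, LPS over control was 1.08 for CLDN11, 1.0 for CLDN12 and 1.02 for CLDN15. In LPS and control, then, CLDN12 followed CLDN1, while in both transfected libraries CLDN11 did.

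**Figure D4:**
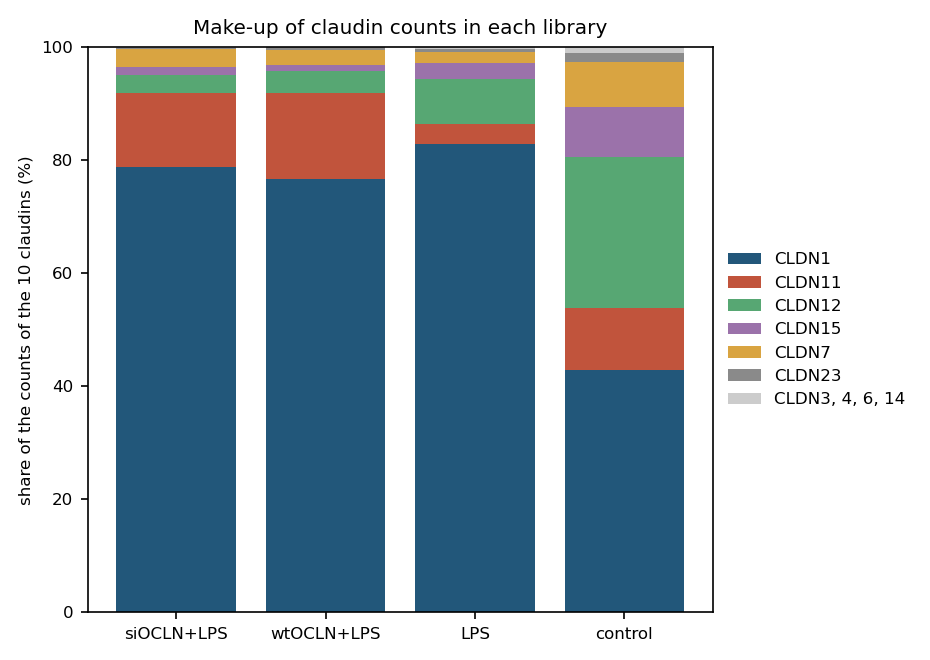
Share of the summed counts of the 10 claudins (vertical axis, percent) held by each gene in the siOCLN+LPS, wtOCLN+LPS, LPS and control libraries. Each column is 1 library, and CLDN3, CLDN4, CLDN6 and CLDN14 are drawn together. CLDN1 fills 76.7% to 82.8% of the columns of the LPS-treated libraries and 42.9% of control.

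Shares of counts favour long transcripts, so levels of different claudins were also set side by side as CPM per kilobase of the longest GENCODE 29 transcript. On this scale the order was CLDN1, CLDN11, CLDN7, CLDN12, CLDN15 and CLDN23 in both transfected libraries, and CLDN1, CLDN12, CLDN11, CLDN15, CLDN7 and CLDN23 in LPS and control. CLDN1 stood at 90.0 CPM per kilobase in siOCLN+LPS, 97.5 in the wtOCLN+LPS-labelled library, 114 in LPS and 17.9 in control. CLDN11 stood at 23.9 CPM per kilobase in siOCLN+LPS, 30.7 in the wtOCLN+LPS-labelled library, 7.81 in LPS and 7.25 in control. CLDN1 was thus 3.77 times CLDN11 in siOCLN+LPS (3.51 to 4.05) and 10.5 times CLDN12 in LPS (9.60 to 11.5), but 1.65 times CLDN12 in control (1.49 to 1.82). CLDN15 and CLDN7 could not be put in order in LPS (ratio 1.23, 0.975 to 1.54) or in control (1.0, 0.816 to 1.23), nor CLDN11 and CLDN15 in control (1.20, 0.997 to 1.46). With coding length in place of transcript length, CLDN12 came before CLDN7 in the wtOCLN+LPS-labelled library, and their order in siOCLN+LPS was within counting error.

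The proteins that hold, modify or transcribe claudins were described from lists, which were chosen with earlier results of these data known. Of 33 tight junction genes other than claudins, 29 were tested in each comparison. In LPS against control 0 of the 29 lay 2-fold apart (median log2 ratio -0.10), beside 1.6% of all genes higher and 0.207% lower. In siOCLN+LPS against LPS, 1 was higher and 2 were lower (median -0.09), and in the wtOCLN+LPS-labelled library against LPS 0 were higher and 1 was lower (median -0.06). Over all genes, 3.32% were higher and 3.92% lower in the siOCLN+LPS comparison, and 3.32% and 3.69% in the other, so these counts of 29 lie near the shares of all genes. MARVELD2, the tricellulin gene of three-cell corners, was at 2.40 CPM in siOCLN+LPS, 3.43 CPM in the wtOCLN+LPS-labelled library and 9.81 CPM in LPS. AMOT, an angiomotin scaffold, was at 6.58 CPM in siOCLN+LPS and 2.74 CPM in LPS, 2.40-fold higher (1.65 to 3.56). OCLN itself was the other gene past 2-fold lower in siOCLN+LPS. Between siOCLN+LPS and wtOCLN+LPS, 0 of the 29 lay 2-fold apart (median 0.04), beside 0.0763% of all genes higher and 0.29% lower.

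Among 11 claudin-binding and claudin-modifying proteins, 0 lay 2-fold apart in LPS against control (median log2 ratio -0.06). Of all genes, 1.6% were higher and 0.207% lower there. WNK4, a kinase that phosphorylates claudins, was the 1 gene of the 11 past 2-fold lower in each comparison of a transfected library with LPS, where 3.92% of all genes were in siOCLN+LPS and 3.69% in the wtOCLN+LPS-labelled library. It was at 1.20 CPM in siOCLN+LPS, 2.06 CPM in the wtOCLN+LPS-labelled library, 12.1 CPM in LPS and 12.6 CPM in control. WNK4 in siOCLN+LPS held 0.0992 of the LPS level (0.0598 to 0.157), and in the wtOCLN+LPS-labelled library 0.170 of it (0.115 to 0.245). The list medians were 0.10 in siOCLN+LPS and -0.07 in the wtOCLN+LPS-labelled library against LPS. In siOCLN+LPS against wtOCLN+LPS 0 of 10 tested members lay 2-fold apart (median -0.04), beside 0.0763% of all genes higher and 0.29% lower.

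Of 22 transcription factors known to act on claudin genes, 14 were tested. As this list too was chosen with earlier results known, its counts beside those of all genes are description only. In LPS against control 3 were at least 2-fold higher and 0 lower (median log2 ratio 0.11), beside 1.6% and 0.207% of all genes. These were the epithelial factor ELF3 (log2 ratio 5.20), the barrier factor KLF4 (1.53) and TWIST1 (1.32), a factor of mesenchymal transition. Between siOCLN+LPS and LPS, the basal cell factor TP63 (1.74) and ELF3 (1.0) were higher and SNAI2, a repressor of claudin genes in epithelial cells, was lower (-1.28), with a median of -0.17, beside 3.32% of all genes higher and 3.92% lower. In wtOCLN+LPS against LPS TP63 (2.48) was higher and SNAI2 (-1.20) lower, with a median of -0.06, beside 3.32% and 3.69% of all genes. ELF3 was at 470 CPM in siOCLN+LPS, 446 CPM in the wtOCLN+LPS-labelled library, 234 CPM in LPS and 5.41 CPM in control. It narrowly passed 2-fold over LPS in siOCLN+LPS and narrowly missed it in the wtOCLN+LPS-labelled library. SNAI2 was at 2.52 CPM in siOCLN+LPS, 2.74 CPM in the wtOCLN+LPS-labelled library, 7.57 CPM in LPS and 8.24 CPM in control. Between siOCLN+LPS and wtOCLN+LPS, 0 of the 14 lay 2-fold apart (median -0.06), beside 0.0763% of all genes higher and 0.29% lower.

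Genes with the most similar profile were sought over the 4 libraries among 11417 genes that reached 5 CPM in some library, by the Euclidean distance between centred log2(CPM + 1) values. The 5 nearest to CLDN1 were IL7R (distance 0.17), IRAK2 (0.30), TNFRSF9 (0.30), NFKB1 (0.36) and PI3 (0.44), and 10 genes lay within 0.5. The nearest to CLDN11 were AFF3 (0.13), ANO2 (0.15), GJA1 (0.18), PDGFRB (0.20) and MUC5B (0.20), with 77 genes within 0.5. For CLDN12 they were PLA2G4C, CD68, FLCN, TPD52L1 and FAM46A (0.06 to 0.10), with 381 genes within 0.5. For CLDN15 they were MST1, ARAP2, LPP, SLC16A1-AS1 and C16orf72 (0.05 to 0.08), with 1051 genes within 0.5. At this fixed distance few genes lay near CLDN1 and many near CLDN15, on 4 libraries that do not replicate any condition. The distance was not scaled for the size of change, so these counts also depend on how far a gene moved.

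Reads of several claudins may be shared with other genes. In GENCODE 29, CLDN12 overlaps GTPBP10 and CDK14 on the same strand, CLDN11 overlaps the coding gene AC026316.5 on the same strand, and CLDN7 overlaps the coding gene AC003688.1 on the same strand over 2187 bases. On the opposite strand, CLDN6 overlaps TNFRSF12A, CLDN7 overlaps ELP5 over 38 bases and CLDN14 overlaps antisense transcripts. The sources used here do not say how the authors' counting assigned such reads, so the values of these genes are uncertain to that extent. CLDN1, CLDN3, CLDN4, CLDN15 and CLDN23 overlap no other annotated gene there.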

How the data were processed

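The authors deposited whole-number counts of reads per gene symbol for each of 4 libraries, 1 per group, with totals of 13867494 to 17500031. The submitters' processing notes list TopHat, Cufflinks and hg19, with no version or role stated, and the labels' protocols give a directional kit. For the counter, strand setting and annotation the sources used here say nothing. CPM was computed from library totals, and ratios as log2(CPM + 1) over genes that reached 1 CPM in at least 1 of the compared libraries, called at 2-fold. No test could be fitted with 1 library per group. Intervals are exact at 95%, and the limit of a count of 0 was 3 counts. The members, lists, markers and rules were chosen with earlier results of these data known. All 10 members were named, with OCLN, up to 4 called genes per list and the 5 nearest profiles of called members at 5 CPM or more. Promoters are from RefSeq, lengths and overlaps from GENCODE 29. The call step was tested on simulated counts. Settings tried were pseudocounts of 0.1 and 5, no filter and 5 CPM, 1.5-fold and 3-fold, and median ratio, upper quartile and TMM scaling; control as reference was added later. Python 3.11.15, NumPy 2.4.6, SciPy 1.17.1, pandas 2.3.3, matplotlib 3.10.9 and edgeR 4.0.16 in R 4.3.3 (for TMM only) were used.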

Additional observations from a re-analysis of the deposited data

How the results depend on the processing

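With the other scalings (median ratio, upper quartile and TMM), the fold of the summed claudins was 3.55, 3.53 and 3.54 in LPS against control (3.32 with library totals), and 0.915, 0.895 and 0.917 in siOCLN+LPS against LPS (0.828). In wtOCLN+LPS against LPS it was 1.03, 0.991 and 1.03, against 0.921 with library totals, so the direction turned with median ratio and TMM scaling. The number of claudins past 2-fold lower than LPS in the wtOCLN+LPS-labelled library was 1 with median ratio and TMM scaling, in place of 2. In siOCLN+LPS this number was 2 in place of 3 with each other scaling (CLDN15 lost) and with a filter at 5 CPM (CLDN23 lost). At a pseudocount of 5 it was 1 in siOCLN+LPS and 0 in the wtOCLN+LPS-labelled library, and at 3-fold it was 0 in both, with 0 higher in siOCLN+LPS. Over all genes, 530 were lower in siOCLN+LPS, against 378 with TMM, 189 at a pseudocount of 5 and 105 at 3-fold. In the wtOCLN+LPS-labelled library these numbers were 498, 334, 173 and 92. In siOCLN+LPS against wtOCLN+LPS, 1 claudin (CLDN23) was lower at a pseudocount of 0.1 and at 1.5-fold, in place of 0. Over all genes, 82 and 156 were lower there, in place of 38. With control in place of LPS, 2 claudins were higher in each transfected library, in place of 1. Of the single-claudin folds under other scalings, 90 stayed within their counting interval and 6, all of CLDN1 against LPS, lay outside it. A scaling shifts every fold of a comparison by the same factor, so this split reflects the width of the intervals and is no measure of stability. With TMM, CLDN12 in the wtOCLN+LPS-labelled library stayed within its interval against LPS while its 2-fold call was lost. Depth limits CLDN3, CLDN4, CLDN6, CLDN14 and CLDN23. No paired analysis was possible because each group holds 1 library.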

Other observations

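Of 16 other claudin and claudin domain-containing symbols in the table, 4 reached 1 CPM in at least 1 library. CLDND1, a claudin domain-containing protein, was at 61.2 CPM in siOCLN+LPS (57.6 to 65.0), 68.1 CPM in the wtOCLN+LPS-labelled library (64.3 to 72.1), 110 CPM in LPS (104 to 115) and 112 CPM in control (107 to 118). CLDN22 was at 5.49 CPM in siOCLN+LPS, 5.94 CPM in the wtOCLN+LPS-labelled library, 3.61 CPM in LPS and 2.96 CPM in control, but it lies within WWC2 on the opposite strand, and how reads of the pair were separated is not stated. CLDN9 had 9 counts in siOCLN+LPS, 9 in the wtOCLN+LPS-labelled library, 15 in LPS and 44 in control, and was thus low in all 3 LPS-treated libraries. CLDN5, the claudin of endothelium, had 3 counts in siOCLN+LPS, 7 in the wtOCLN+LPS-labelled library, 12 in LPS and 26 in control. Among the other endothelial markers PECAM1 had 1 to 4 counts and CDH5 reached 1.08 CPM in LPS, and the list of 6 with CLDN5 summed to 1.72 CPM in siOCLN+LPS, 1.94 CPM in the wtOCLN+LPS-labelled library, 2.45 CPM in LPS and 2.08 CPM in control. CLDN18, the claudin of lung alveoli, had 1 to 6 counts in the 4 libraries.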
